A study of Mus musculus with 8 samples.

Results

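The venous endothelium of the embryonic aorta-gonad-mesonephros region (AGM, the tissue around the dorsal aorta in which the first blood stem cells form) was divided by the study into 4 clusters, vEC_1 to vEC_4. The outermost pair, vEC_4 and vEC_1, is compared here within wild-type (WT) embryos. The members were the WT cells that the deposited annotation names vEC_4 (815 cells) or vEC_1 (1599 cells), together 2414 of 8423 WT cells and of 15168 cells in the whole series. The assay was CITE-seq, in which each droplet yields counts of RNA molecules, told apart by unique molecular identifiers (UMIs), along with counts of antibody tags that had bound proteins on the cell surface. All cells were sorted as CD31+ from E10.5 mouse AGM, with each library made from cells of 2 to 5 embryos. The 5 WT libraries were labelled C57BL/6, with no further allele or agent given. The 3 Meis1-flox/VE-Cre libraries, used only to ask whether the contrast differs with genotype, were labelled Meis1-knockout. In those embryos a floxed Meis1 is cut by a Cre that the VE-cadherin promoter drives, so that the deletion is set to endothelium and its descendants. CD31 is carried by endothelium and by many blood cells, and the position of a cell in the embryo (which vein, and how far from the aorta) was not recorded.

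Veins and arteries of the embryo start from 1 kind of endothelial precursor and are told apart by their transcription programs. Nr2f2 (COUP-TFII) maintains venous identity and represses Notch signalling, whereas Dll4, a Notch ligand, and Efnb2, a ligand of the receptor Ephb4, mark arteries. Lymphatic endothelium arises from veins at about this stage, when cells of the cardinal vein switch on Prox1, a homeobox gene, together with Nr2f2. Capillaries that grow by sprouting carry tip-cell genes such as Esm1, and Wnt signalling through Lef1 and Tcf7 is best known in endothelium for the barrier vessels of the brain.

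The number of cells per WT library ranged from 64 to 276 for vEC_4 and from 131 to 548 for vEC_1. The summed counts ranged from 1252174 to 6248436 UMIs for vEC_4 and from 3530521 to 14975939 for vEC_1. WT 5 was the shallowest library, with medians of 9294 and 11408 UMIs per cell, against 19522 to 26488 in the others. The tags of WT 4 are given as 0 in every cell. The paper lists no tag reads for this library, so these values are treated as missing. In the vEC_4 cells of WT 4 glycolysis genes stood apart from the other libraries, as given below. Only 1 cell barcode was found in more than 1 library among these cells, and Scrublet, a doublet caller, marked 0 of the vEC_4 and 1 of the vEC_1 cells. The clusters had been drawn from the RNA of these same cells. The test therefore describes how steadily 5 libraries show each difference and is no independent evidence that the clusters differ, whereas the tags took no part in the clustering.

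Both clusters were endothelial by their markers. Cdh5 (VE-cadherin) stood at a mean of 415 CPM (UMIs of a gene per 1e6 UMIs of its sum, after TMM scaling) in vEC_4 and 352 CPM in vEC_1, Pecam1 (CD31) at 192 and 178 CPM, and Emcn at 945 and 693 CPM. Of 19 pan-endothelial genes, 11 were called higher and 4 lower in vEC_4, with a median log2 fold change of 0.12. The venous name held in relation to arterial endothelium (aEC), although less so for vEC_1. On a scale set over all endothelial clusters, Nr2f2 stood at 39.3 ± 7.05 CPM in aEC (SD, n = 5), at 98.1 ± 17.7 in vEC_1 and at 280 ± 28.3 in vEC_4, while Dll4 stood at 48.4 ± 11.8, 16.6 ± 3.64 and 2.49 ± 2.05 CPM.

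Counts were summed per library and cluster and tested with edgeR's quasi-likelihood F test, with the library as a block and Benjamini-Hochberg adjustment. At an adjusted p under 0.1, 6055 of 11089 genes were called (54.6%), of which 2995 (27.0%) were higher and 3060 (27.6%) lower in vEC_4. Because so many genes differed a little, calls of at least 2-fold were counted as well. These were 1002 genes (9.04%), 688 of them higher (6.20%) and 314 lower (2.83%). The median log2 fold change of all genes tested was 0.01. The libraries of the 2 clusters did not overlap in 2422 genes (21.8%). These shares are the background against which the groups of genes below are to be read.

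Venous genes were mostly higher in vEC_4. All 3 venous genes that the study used were called and their libraries did not overlap. Nr2f2 stood at 315, 272, 254, 247 and 304 CPM in vEC_4 of WT 1 to 5 and at 91.7, 109, 76.7, 76.8 and 114 CPM in vEC_1. The lowest vEC_4 library was thus more than 2-fold above the highest vEC_1 library, and the log2 fold change was 1.58 (SE 0.06, adjusted p 5.92e-20 by edgeR). Nrp2, a receptor for the lymphangiogenic factor VEGF-C, rose from 125 ± 7.84 to 357 ± 83.7 CPM (log2 fold change 1.45). Ephb4 rose from 36.9 ± 1.94 to 74.8 ± 7.03 CPM (1.00). Of 13 further venous genes tested, 10 were called higher and 0 lower, with a median log2 fold change of 0.68.

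The largest of these rises were in genes that vEC_1 hardly expressed. Vwf (von Willebrand factor, a clotting protein stored by endothelium) stood at 76.4, 46.1, 77.8, 96.2 and 65.0 CPM in vEC_4 and between 2.39 and 8.47 CPM in vEC_1, a log2 fold change of 3.72 (SE 0.12). Bmp4, a secreted growth factor, rose from 6.10 ± 2.79 to 85.1 ± 32.4 CPM (3.81). Tll1, a tolloid-like protease, rose from 2.69 ± 1.26 to 28.6 ± 6.20 CPM (3.33), and Flrt2, an adhesion protein, from 27.7 ± 5.04 to 131 ± 25.2 CPM (2.22). Ackr3, a scavenging receptor for Cxcl12, had a log2 fold change of 2.61, but stood at 0.95, 11.8, 0.00, 10.4 and 0.45 CPM in vEC_4, so that it was high in WT 2 and WT 4 and the libraries overlapped. Ackr3 passed the count filter through vEC_4 alone, so its direction was fixed and it adds no weight to the count of further venous genes called higher. Vwf and Ackr3 did not separate venous from arterial clusters here. On the scale set over all endothelial clusters, Vwf stood at 23.5 ± 17.2 CPM in aEC and at 5.18, 3.99 and 16.1 in vEC_1 to vEC_3. For Ackr3 these means were 2.66, 0.86, 0.40 and 0.28 CPM. Bmp4, Tll1 and Flrt2 were lowest in aEC, at 1.11, 1.71 and 10.9 CPM.

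**Figure D1:**
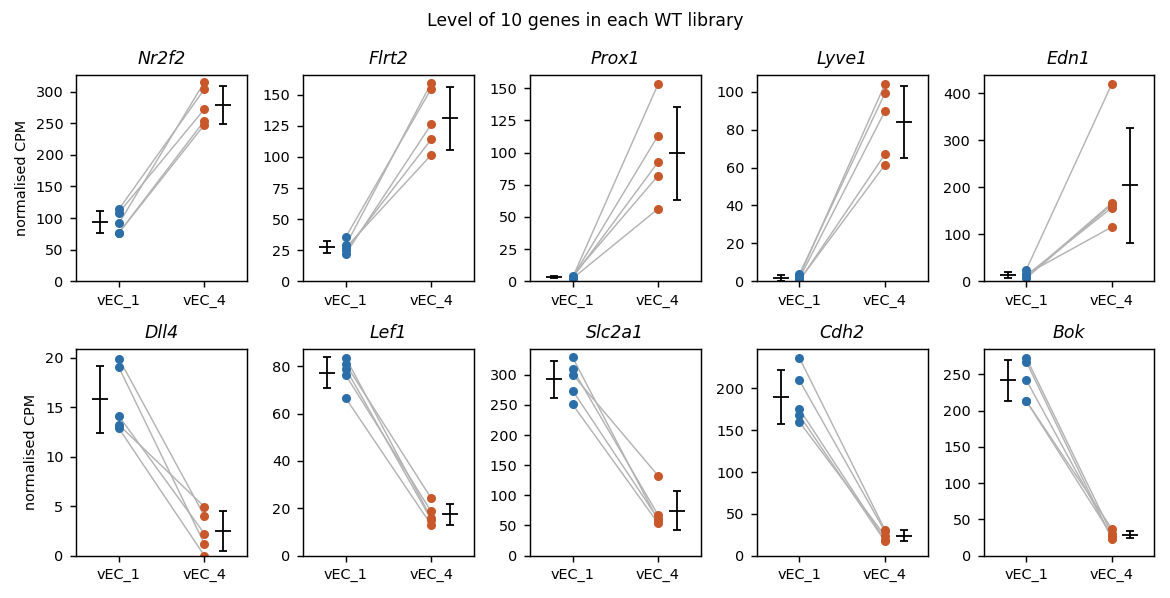
Normalised CPM (y axis, from 0) of 10 genes in vEC_1 (blue) and vEC_4 (orange) of each of 5 WT libraries; grey lines join the clusters of 1 library, and black bars give mean and SD. In each gene drawn the libraries of the clusters do not overlap, as for Nr2f2, with 247 to 315 CPM in vEC_4 and 76.7 to 114 CPM in vEC_1, whereas Edn1 spreads widely within vEC_4 because WT 4 stands at 419 CPM.

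Arterial genes were mostly lower in vEC_4. Of the 9 arterial genes of the study, 6 were called lower (Dll4, Notch4, Nrp1, Jag1, Efnb2 and Epas1), 2 higher (Gja5 and Vegfc) and Notch1 was not called (0.13, adjusted p 0.114), with a median log2 fold change of -0.35. Dll4 stood at 2.22, 1.18, 0.00, 4.02 and 4.93 CPM in vEC_4 and at 14.1, 19, 12.8, 19.9 and 13.2 CPM in vEC_1, a log2 fold change of -2.51 (SE 0.22, adjusted p 5.13e-11 by edgeR). It was the only one of the 6 that fell by at least 2-fold. Efnb2 fell from 36.4 ± 2.96 to 25.2 ± 4.34 CPM (-0.48) without overlap, and the others, between -0.32 and -0.43, overlapped between clusters. Of 11 further arterial genes tested, 7 were called lower, 4 of them by at least 2-fold, and 3 higher, with a median of -0.81. Sox17, a transcription factor of arterial endothelium, fell from 123 ± 15.9 to 48.0 ± 14.1 CPM (-1.35), and Sema3g, a secreted semaphorin, from 8.69 ± 1.40 to 0.86 ± 0.66 CPM (-3.10). The Notch ligand Jag2 fell by 2.38 and the Notch target Hey1 by 1.23 on the log2 scale. Sema3g and Jag2 passed the count filter through vEC_1 alone, so their direction was fixed and they add no weight to the counts of genes called lower.

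Gja5 (connexin 40, an arterial gap junction protein) went the other way, with a log2 fold change of 3.49 (SE 0.53, adjusted p 2.44e-06 by edgeR), but in very few cells. It stood at 4.12, 0.79, 10.3, 1.93 and 5.38 CPM in vEC_4 and at no more than 0.62 CPM in vEC_1. Its 52 UMIs in vEC_4 came from 12 of 815 cells, and 5 of these cells held 78.8% of them. Bmx, an arterial kinase, had 41 UMIs in 18 vEC_4 cells and 3 UMIs in vEC_1, a ratio of 32.4 with a 95% exact interval of 10.3 to 164 that covers counting error only. Both genes are abundant in the pre-hemogenic endothelium (pre-HE) of these libraries, at 439 ± 104 CPM for Gja5 and 106 ± 26.6 CPM for Bmx. Whether the few vEC_4 cells are of that kind was not tested. Without WT 4 the log2 fold change of Gja5 was 5.76. Gja5 and Bmx passed the count filter through vEC_4 alone, so they add no weight to the counts of arterial genes called higher.

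Genes of the lymphatic program were higher in vEC_4 as a group. Of 12 such genes 11 were tested, and 11 of 11 were called higher against 27.0% of all genes, with 9 at 2-fold or more and a median log2 fold change of 2.54. Prox1 stood at 113, 92.5, 153, 56.2 and 82.1 CPM in vEC_4 and at 3.08, 2.78, 2.99, 2.27 and 4.26 CPM in vEC_1, a log2 fold change of 4.90 (SE 0.12, adjusted p 3.76e-24 by edgeR). Within vEC_4, WT 3 was highest and WT 4 lowest, and each vEC_4 library was far above each vEC_1 library. Lyve1, a hyaluronan receptor of lymphatic and sinusoidal endothelium, stood at 89.7, 66.9, 104, 61.4 and 99.1 CPM in vEC_4 and between 0.33 and 3.83 CPM in vEC_1 (5.73, SE 0.16). Foxc2, a transcription factor needed for lymphatic valves, rose from 3.74 ± 0.80 to 60.8 ± 6.03 CPM (3.93). The remaining rises were small in Sox18 (0.12) and Flt4 (0.19), which encodes the VEGF-C receptor VEGFR3, and both were already well expressed in vEC_1. Reln and Ccl21a, genes of mature lymphatic vessels, had only 37 and 36 UMIs in vEC_4, in 20 and 9 cells, and 1 and 2 UMIs in vEC_1. Their ratios were 87.8 (95% exact interval 14.8 to 3560) and 42.7 (11 to 366). Both passed the count filter through vEC_4 alone, so their direction was fixed and they add no weight to the 11 of 11.

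Prox1 and Lyve1 were detected in a part of the cluster. After each cell had been thinned to 5000 UMIs, 21.9% of 808 vEC_4 cells had a Prox1 UMI and 24.6% a Lyve1 UMI, against 1.32% and 0.82% of 1593 vEC_1 cells. In Myeloid cells, which should lack Prox1, 2.19% had a Prox1 UMI, so the vEC_1 share lies at background for Prox1 while that in vEC_4 does not. Some embryonic macrophages express Lyve1, and Myeloid cells (3.14%) therefore give no background for it. In aEC 0.11% of 886 cells had a Lyve1 UMI (95% exact interval 0.0029% to 0.63%). Of the 177 vEC_4 cells with a Prox1 UMI, 35.6% also had a Lyve1 UMI, against 21.6% of the 631 cells without. For Nr2f2 these shares were 78.0% and 68.8%, and for Hoxa5 65.0% and 43.4%. For Vwf they were 26.0% and 29.5%. Cells of 1 library are not replicates, and no test was made of these shares.

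The related list of sinusoid-type scavenger genes, which clear proteins and lipids from blood, also had 8 of 8 tested genes higher, 8 at 2-fold or more, although it shares Lyve1, Stab1, Stab2 and Mrc1 with the lymphatic list, which in turn holds the venous gene Nr2f2. Stab2, a scavenger receptor, rose from 3.05 ± 0.81 to 16.4 ± 3.82 CPM (2.54). Among the genes it does not share, Cd36, a fatty acid receptor, rose from 0.50 ± 0.34 to 14.2 ± 5.60 CPM (4.39), and Maf, a transcription factor, from 3.17 ± 0.66 to 34.5 ± 8.48 CPM (3.44). Gata4 had a log2 fold change of 3.71 and varied widely in vEC_4, at 3.80, 8.66, 3.17, 21.7 and 1.35 CPM, with WT 4 highest and WT 5 within the range of vEC_1. Cd36 and Gata4 passed the count filter through vEC_4 alone, so they add no weight to the 8 of 8.

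Among flow-responsive and vasoactive genes 12 of 15 were called higher and 2 lower, with a median log2 fold change of 0.69. Edn1 (endothelin 1, a vasoconstrictor peptide) had the largest rise among the well expressed genes that met the rule for naming. It stood at 166, 163, 156, 419 and 115 CPM in vEC_4 and at 8.58, 6.88, 12.5, 24.6 and 15.3 CPM in vEC_1, a log2 fold change of 3.97 (SE 0.11, adjusted p 2.48e-23 by edgeR). WT 4 was highest in both clusters, and the value without WT 4 was 3.88. An Edn1 UMI was found in 41.6% of thinned vEC_4 cells, 5.02% of vEC_1 cells and 1.24% of Myeloid cells, so the rise was not limited to a few cells. The endothelin receptor gene Ednrb rose with it, from 4.10 ± 1.31 to 58.2 ± 19.6 CPM (3.84). Calcrl, the receptor for adrenomedullin, rose from 58.4 ± 6.46 to 177 ± 23.2 CPM (1.60), while its accessory protein Ramp3 fell from 36.9 ± 2.79 to 4.64 ± 2.10 CPM (-2.78). The flow-induced transcription factor Klf4 rose by 1.55 on the log2 scale.

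Edn1 and Vwf, like Gja5, are far more abundant in pre-HE than in vEC_4, at 597 ± 233 and 586 ± 207 CPM. Unlike Gja5, their UMIs were spread over the cluster, since 458 and 435 of 815 vEC_4 cells held 1 or more and the 5 highest cells held only 6.20% and 6.50%. Of the vEC_4 cells with an Edn1 UMI after thinning, 38.1% had a Vwf UMI, against 22% of those without.

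Tip and sprouting genes were lower in vEC_4, with 13 of 20 called lower against 27.6% of all genes, and 3 called higher (Angpt2, Kdr and Flt4). Esm1, a secreted proteoglycan of tip cells, stood at 0.32, 0.00, 1.59, 0.80 and 0.00 CPM in vEC_4 and at 16.4, 9.34, 3.58, 18.2 and 11.3 CPM in vEC_1 (log2 fold change -4.71, SE 0.33). Its 8 UMIs in vEC_4 came from 6 cells, against 488 UMIs in 160 vEC_1 cells, so in both it was a gene of few cells. Esm1 passed the count filter through vEC_1 alone, so its direction was fixed and it adds no weight to the 13 called lower. Cd34, a sialomucin of sprouting endothelium and of progenitors, was by contrast abundant, and fell from 675 ± 28.7 to 175 ± 20.8 CPM (-1.94) with no overlap. Nid2, a basement membrane protein, fell by 2.64, Pdgfb, which recruits pericytes, by 1.67 and Kcne3, a potassium channel subunit, by 2.60 on the log2 scale. Kcne3 was uneven in vEC_4, at 0.32, 3.15, 0.79, 32.3 and 4.49 CPM, and its value without WT 4 was -4.66.

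Wnt-related and barrier genes fell as a group. Of 11 tested, 10 were called lower, 9 of them by at least 2-fold against 2.83% of all genes, and 0 higher, with a median log2 fold change of -2.13, while 1 was not called. The transcription factor Lef1 stood at 15.2, 13, 15.9, 18.6 and 24.2 CPM in vEC_4 and at 79.0, 66.5, 83.6, 76.3 and 80.9 CPM in vEC_1 (-2.13, SE 0.09, adjusted p 3.02e-18 by edgeR). Its relative Tcf7 fell from 25.5 ± 1.34 to 4.47 ± 1.57 CPM (-2.55). Axin2, a feedback inhibitor that Wnt signalling induces, fell from 10.9 ± 2.69 to 0.70 ± 0.59 CPM (-3.77). Slc2a1 (GLUT1), the glucose transporter of barrier endothelium, stood at 67.5, 58.3, 54.0, 133 and 61.0 CPM in vEC_4 and at 310, 329, 251, 300 and 274 CPM in vEC_1 (-1.91). It was highest in WT 4 within vEC_4, and the value without WT 4 was -2.26. The amino acid transporter Slc7a5 fell by 3.56 and the forkhead gene Foxq1 by 4.91 on the log2 scale. Another forkhead gene, Foxf2, had 3 UMIs in vEC_4 and 319 in vEC_1, so that vEC_1 was higher by a ratio of 44.8 (95% exact interval 15.2 to 218). Foxf2, Foxq1 and Axin2 passed the count filter through vEC_1 alone, so they add no weight to the count of genes called lower.

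**Figure D2:**
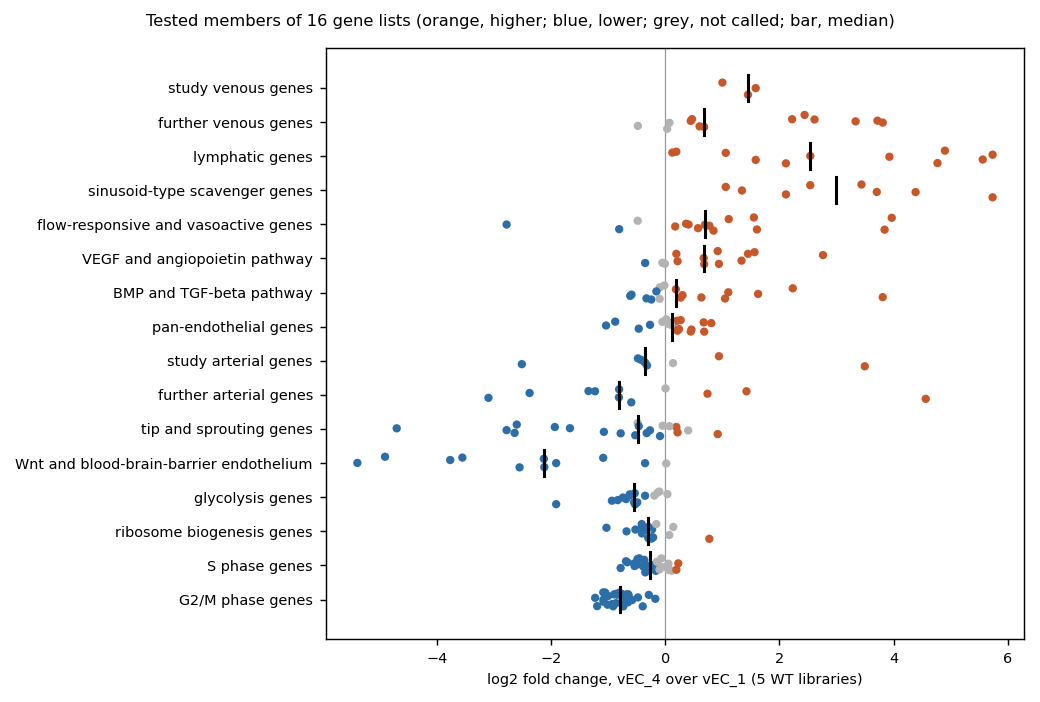
Log2 fold change of vEC_4 over vEC_1 (x axis) for the tested members of 16 gene lists, 1 point a gene, with orange for genes called higher, blue for genes called lower, grey for genes not called and a black bar for the median. The lymphatic and scavenger lists lie on the right of 0, with medians of 2.54 and 2.99, the Wnt list lies on the left with a median of -2.13, and the G2/M list forms a narrow group around -0.79.

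Several of the largest falls of well expressed genes were in genes outside these lists. Cdh2 (N-cadherin, an adhesion protein) stood at 29.2, 17.3, 30.9, 19 and 23.8 CPM in vEC_4 and at 210, 168, 236, 175 and 160 CPM in vEC_1 (log2 fold change -3.02, SE 0.08). Bok, a member of the BCL2 family of apoptosis regulators, fell from 242 ± 28.4 to 28.9 ± 5.31 CPM (-3.05). Clec1b (CLEC-2, a receptor for podoplanin best known on platelets) fell from 424 ± 29.5 to 93.3 ± 20.7 CPM (-2.19). It was detected in 78.4% of thinned vEC_1 cells, 33.7% of vEC_4 cells and 7.04% of Myeloid cells. The platelet gene Pf4 was not called. Of 15 junction and adhesion genes tested, a list without Cdh2, 8 were called higher and 3 lower, with a median of 0.11. The phosphatase gene Ptp4a3 fell by 1.77 and the adaptor gene Dok4 by 1.65 on the log2 scale.

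Among the largest rises, Cd59a, an inhibitor of complement attack, stood at 207, 186, 209, 212 and 181 CPM in vEC_4 and at 21.9, 28.2, 20.9, 26.4 and 23.4 CPM in vEC_1. The log2 fold change was 3.02 (SE 0.07, adjusted p 1.76e-24 by edgeR). Dab2, an endocytic adaptor, rose from 28.1 ± 3.15 to 167 ± 26.5 CPM (2.57). Igf1, a growth factor, rose from 54.0 ± 5.26 to 264 ± 32.5 CPM (2.26) and Lbp, which binds bacterial lipopolysaccharide, from 23.2 ± 5.30 to 97.1 ± 18.8 CPM (2.04). The homeobox gene Meis2 rose from 14.5 ± 1.38 to 96.9 ± 6.02 CPM (2.69).

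Hox genes differed by their place in the cluster. These homeobox genes lie in 4 chromosomal clusters, and those with low paralog numbers are expressed from more anterior levels of the body than those with high numbers. Of 39 Hox genes 19 were tested. All 10 with paralog numbers from 1 to 5 were called higher in vEC_4, with log2 fold changes from 0.53 to 2.94 and a median of 1.38. Of the 9 with numbers 6 and above, 0 were called higher and 4 lower (Hoxb7, Hoxb8, Hoxb9 and Hoxd9), with a median of -0.68. The division at 5, and the naming of Hoxb7 to Hoxb9, were chosen after the values had been seen. Hoxa5 stood at 155, 188, 167, 128 and 147 CPM in vEC_4 and at 20.1, 20.5, 14.9, 20.6 and 20.9 CPM in vEC_1 (2.94, SE 0.08, adjusted p 3.37e-23 by edgeR). Hoxa2 rose from 2.46 ± 0.70 to 10.5 ± 2.26 CPM (2.10) and Hoxd4 from 9.81 ± 2.06 to 26.5 ± 3.99 CPM (1.44). Hoxb9 fell from 7.13 ± 0.76 to 3.95 ± 1.47 CPM (-0.90). Hoxd9 had 11 and 77 UMIs and a log2 fold change of -1.61. It passed the count filter through vEC_1 alone, so it adds no weight to the 4 called lower. Genes of 1 Hox cluster overlap and share transcripts, so neighbouring values are not independent.

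**Figure D3:**
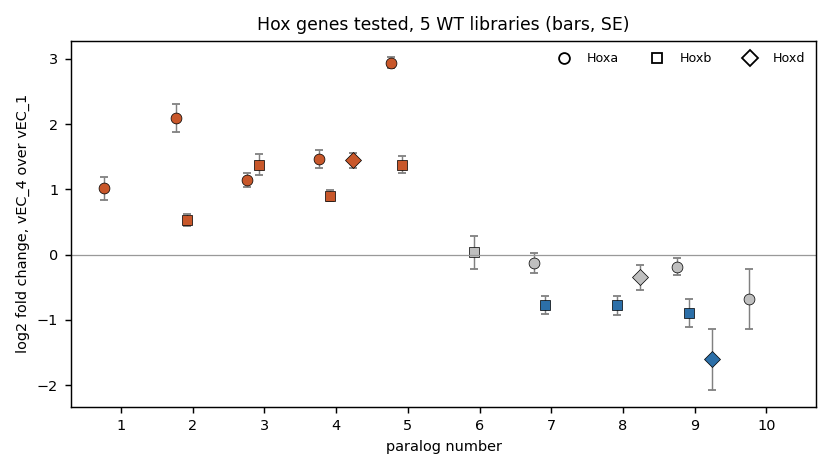
Log2 fold change of vEC_4 over vEC_1 with its SE (y axis) for 19 Hox genes by paralog number (x axis), with a shape for each Hox cluster, orange for genes called higher, blue for lower and grey for not called. The 10 genes numbered 1 to 5 lie between 0.53 and 2.94, and those numbered 6 and above lie between -1.61 and 0.04.

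The cells of vEC_4 carried less RNA of the dividing state than those of vEC_1. All 36 G2/M phase genes tested were called lower against 27.6% of all genes, with log2 fold changes between -1.23 and -0.17 and a median of -0.79, and in 31 the libraries did not overlap against 21.8% of all genes. Plk1, a mitotic kinase, stood at 17.7, 28.4, 15.1, 40.0 and 30.5 CPM in vEC_4 and at 63.3, 74.7, 72.6, 65.0 and 65.1 CPM in vEC_1 (-1.23, SE 0.12). Aurka, another mitotic kinase, fell from 67.3 ± 9.29 to 28.1 ± 7.77 CPM (-1.19). On the scale set over all endothelial clusters, Plk1 stood at 39.2 ± 4.78 CPM in aEC and 71.5 ± 5.15 in vEC_1. It stood at 108 ± 9.11 in vEC_2, 91.0 ± 12.8 in vEC_3 and 26.6 ± 10.5 in vEC_4. Aurka ran alike, at 32.6, 70.5, 114, 90.8 and 28.4 CPM. Both genes were thus highest in vEC_2 and vEC_3, and low in aEC as well as in vEC_4. Of 32 S phase genes 21 were called lower and 2 higher (Mcm6 and Dtl), with a smaller median of -0.26. After thinning to 5000 UMIs, cells without a UMI of the G2/M genes Mki67, Top2a, Cdk1, Ccnb1 and Cdc20 made up 34.0%, 22.6%, 43.8%, 27.5% and 23.6% of vEC_4 cells in WT 1 to 5. In vEC_1 the shares were 8.40%, 9.20%, 7.63%, 11.2% and 7.47%, so that the clusters did not overlap. In the 3 Meis1-flox/VE-Cre libraries the shares were 25.7% to 29.8% in vEC_4 and 7.03% to 8.0% in vEC_1, again without overlap. The cell cycle inhibitor Cdkn1c rose from 208 ± 32.9 to 474 ± 72.2 CPM (1.18), whereas Cdkn1a fell by 1.56 on the log2 scale, and by 2.64 without WT 4.

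Genes of this list share a promoter element that the choice of the list did not use. The cell cycle homology region (CHR, with the core letters TTTGAA) is known to hold genes of late cell cycle repressed in resting cells. In RefSeq promoter windows on GRCm38.p6, from 250 bases before to 50 bases after the gene start, the core was found on either strand in 24 of the 32 G2/M genes that have a window (75.0%), against 18.1% of all 27025 promoters and 11.4% of those of the genes tested that have a window. In 12 of them a core lay upstream of the start, as in 839 of the 8456 genes tested that have a window. Of the S phase genes, 4 of 24 held the core (16.7%). A TCF/LEF core (CTTTGA) was searched in the same windows. It was found in 1 of 8 genes of the Wnt list (12.5%), against 11.4% of the genes tested. The 100 bases before the start are shown for 5 G2/M genes that have a core within this distance, picked after the search, to let the site be seen in its place. Capitals mark the core as TTTGAA, or as TTCAAA where it lies on the other strand, and all run 5′ to 3′ along the gene.
Cdc20, chr4:118437344-118437443, minus strand: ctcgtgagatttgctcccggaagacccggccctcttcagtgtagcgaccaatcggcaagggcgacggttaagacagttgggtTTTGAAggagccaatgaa
Ube2c, chr2:164769829-164769928, plus strand: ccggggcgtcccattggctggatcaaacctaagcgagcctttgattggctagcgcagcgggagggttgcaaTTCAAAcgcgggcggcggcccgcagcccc
Top2a, chr11:99024190-99024289, minus strand: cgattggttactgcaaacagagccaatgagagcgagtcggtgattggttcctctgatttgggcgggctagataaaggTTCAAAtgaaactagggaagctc
Cdk1, chr10:69352913-69353012, minus strand: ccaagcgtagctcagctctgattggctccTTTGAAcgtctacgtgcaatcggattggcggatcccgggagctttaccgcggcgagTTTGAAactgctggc
Kif11, chr19:37376282-37376381, plus strand: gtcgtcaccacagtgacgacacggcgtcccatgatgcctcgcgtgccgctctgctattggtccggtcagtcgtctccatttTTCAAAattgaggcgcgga

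In Cdc20 the core begins 18 bases upstream of the start, in Kif11 19, in Top2a 23 and in Ube2c 29, and in Cdk1 there are cores at 71 and at 15 bases. The genes fell by 1.00 (Cdc20), 1.08 (Ube2c), 0.64 (Top2a), 0.91 (Cdk1) and 0.48 (Kif11) on the log2 scale. The match is a description of these letters and does not show that a factor binds there.

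Genes of growth and energy use were lower too, by less. Of 22 ribosome biogenesis genes 17 were called lower and 1 higher, with a median log2 fold change of -0.31, and of 20 oxidative phosphorylation genes 17 lower and 1 higher, with a median of -0.20. Mycn fell by 1.03 on the log2 scale while Myc rose by 0.77. Of 16 glycolysis genes 12 were called lower and 0 higher, with a median of -0.54, but here WT 4 stood apart. Pkm stood at 477, 536, 444, 916 and 545 CPM in vEC_4 and between 898 and 1184 CPM in vEC_1, and Ldha at 564, 626, 497, 1131 and 589 CPM against 1031 to 1338. In each of these genes the vEC_4 value of WT 4 alone reached the range of vEC_1. Without WT 4, 15 of 16 were called lower, with a median of -0.65.

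The 2 clusters also differed in depth, which moves with the contrast. Median UMIs per cell were lower in vEC_4 in 5 of 5 WT libraries, at 0.754 to 0.853 of the vEC_1 value, and the mean difference of -4248 UMIs gave p 0.0625 in an exact permutation of signs over libraries, two-sided (adjusted over 3 measures 0.0938), the smallest that 5 libraries can give. Median genes per cell were also lower in 5 of 5, by a mean of 342 genes (p 0.0625 by the same exact test). The mitochondrial share was higher in vEC_4 in 4 of 5 libraries, by a mean of 0.27 percentage points (exact p 0.125). The part of depth in the results was not tested beyond thinning. With each cell thinned to 5000 UMIs, the median log2 fold changes were 1.63 for the lymphatic list (6 of 8 tested called higher), 3.06 for the scavenger list (6 of 6 higher), -1.92 for the Wnt list (7 of 9 lower), -0.80 for the G2/M list (35 of 36 lower) and -0.50 for the glycolysis list (11 of 16 lower).

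Genes known from pre-hemogenic and hemogenic endothelium differed in direction. Of 20 such genes 14 were tested. In vEC_4 7 were called higher and 3 lower, against 27.0% and 27.6% of all genes. Procr (endothelial protein C receptor) rose from 8.68 ± 2.55 to 43.1 ± 10.4 CPM (log2 fold change 2.28) and Meis1, the gene deleted in the other genotype, from 2.75 ± 0.55 to 9.30 ± 1.57 CPM (1.88, SE 0.21, adjusted p 8.71e-09 by edgeR). Lmo2, a bridging factor of blood and endothelial transcription, fell from 579 ± 33.6 to 173 ± 17.3 CPM (-1.72), and Hlf from 2.55 ± 1.04 to 0.73 ± 0.39 CPM (-1.97) with overlap. Hlf passed the count filter through vEC_1 alone, so its direction was fixed and it adds no weight to the 3 called lower. A Meis1 UMI was found in 4.83% of thinned vEC_4 cells and 1.00% of vEC_1 cells, but also in 7.33% of Myeloid cells, which are known to express Meis1 and so give no background for it. Runx1, Gfi1, Gfi1b, Spi1, Cd44 and Myb were too low to be tested.

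Several of these genes formed an order over the endothelial clusters that the contrast of the outermost pair does not show. On the scale set over all endothelial clusters, Nr2f2 rose from 39.3 ± 7.05 CPM in aEC through 98.1 ± 17.7 in vEC_1, 126 ± 15.1 in vEC_2 and 219 ± 23.3 in vEC_3 to 280 ± 28.3 in vEC_4. Cdh2 fell in the same order, from 456 ± 87.4 CPM through 199 ± 33.7, 107 ± 25.7 and 29.96 ± 2.61 to 24.1 ± 5.71, with vEC_3 and vEC_4 within their spread. Foxq1 fell from 167 ± 22 CPM in aEC and 44.1 ± 6.47 in vEC_1 to 9.96 ± 4.16 in vEC_2 and about the same low level in vEC_3 (0.61 ± 0.35) and vEC_4 (1.37 ± 0.53). Hoxa5 stood at 10.6 ± 3.53, 20.3 ± 2.67, 34.6 ± 4.27, 79.0 ± 6.11 and 158 ± 22.7 CPM, so each step was larger than the spread of its neighbours. Prox1 was low in aEC, vEC_1 and vEC_2 (2.13 to 5.69 CPM) and stood at 63.5 ± 17.7 in vEC_3 and 99.6 ± 35.4 in vEC_4, which overlap within their SD. Lyve1 and Edn1 set vEC_4 further apart. Lyve1 stood at 15.5 ± 4.26 CPM in vEC_3 and 84.5 ± 18.6 in vEC_4, and Edn1 at 39.5 ± 15.9 and 205 ± 125. The mitotic genes Plk1 and Aurka, given above, did not follow the order, and neither did several arterial genes. Epas1 stood at 12.5 ± 3.37 CPM in vEC_3 and 20.7 ± 5.08 in vEC_4, Jag1 at 11.7 ± 2.18 and 16.7 ± 2.28, and Hey1 at 1.27 ± 0.96 and 5.35 ± 2.43. Dll4, at 1.65 ± 0.72 and 2.49 ± 2.05 CPM, was within its spread. Sox17 went the other way, at 57.1 ± 10.5 and 48.2 ± 14.6 CPM, also within its spread. The clusters were drawn from the RNA of these cells, so the order is a description with no test.

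**Figure D4:**
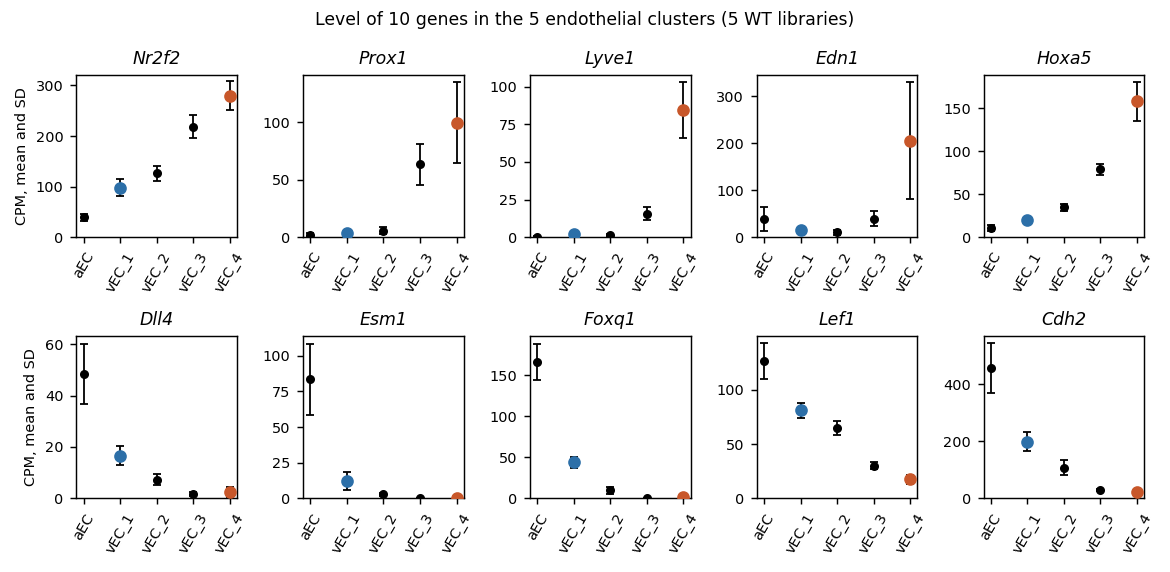
Mean CPM with SD over 5 WT libraries (y axis, from 0) of 10 genes in arterial endothelium and the 4 venous clusters (x axis), with vEC_1 in blue and vEC_4 in orange. Hoxa5 climbs at each step from 10.6 to 158 CPM and Cdh2 falls from 456 to 24.1 CPM, while Lyve1 and Edn1 are high mainly in vEC_4.

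Markers of other cell types were mostly low, and some differed between the clusters. The summed level of 12 erythroid genes ranged from 18.2 to 249 CPM in vEC_4 and from 36.8 to 186 CPM in vEC_1, and of 6 tested only Epor was called. The 17 myeloid genes summed to 8.68 to 25.9 CPM and 5.30 to 29.2 CPM, and 0 of 5 tested were called higher. Mesenchymal genes were higher in vEC_4, with 4 of 5 tested called higher and a summed level of 27.4 to 53.3 CPM against 13.1 to 16.9 CPM. Twist1, a mesenchymal transcription factor, rose from 1.95 to 17.9 CPM and Col3a1, a fibrillar collagen, from 1.03 to 12 CPM, while the defining markers Pdgfra, Pdgfrb, Col1a1, Lum, Dcn and Postn were too low to be tested. Smooth muscle genes, several of which encode contractile proteins also made by other cells, were called higher in 6 of 6 tested, with 2 at 2-fold or more, and summed to 248 to 318 CPM in vEC_4 and 235 to 276 CPM in vEC_1, while Cnn1, Myh11, Actg2 and Des were too low to be tested. The 10 neural and neural crest genes summed to 149 to 254 CPM and 177 to 226 CPM. Of 3 tested, Stmn2, which encodes a microtubule regulator of neurons and was among the largest rises, rose from 35.0 ± 11.9 to 138 ± 32.8 CPM (1.97) without overlap, and Nes was called lower, while the defining markers Sox2, Sox10, Tubb3, Elavl3, Elavl4 and Foxd3 were too low to be tested. Stmn2 was found in the other endothelial clusters too, at 47.2 ± 43.7 CPM in aEC, 44.5 ± 11.9 in vEC_2 and 96.9 ± 17.5 in vEC_3. In pre-HE it stood at 607 ± 146 CPM. Of 10 epithelial genes 1 was tested, Epcam, which rose from 0.80 ± 0.41 to 3.11 ± 1.16 CPM (1.81), and the list summed to 4.36 to 21.9 CPM and 1.02 to 4.32 CPM. Epcam passed the count filter through vEC_4 alone, so its direction was fixed. The 10 megakaryocyte and platelet genes summed to 11.8 to 44.9 CPM and 12.8 to 44.0 CPM, and 0 of 2 tested were called by edgeR. The part of these cell types in the results was not tested.

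The antibody tags, which the clustering did not use, were higher on vEC_4 in most libraries, although its cells held fewer RNA molecules. CD45.2, the tag of the pan-leukocyte protein CD45, stood at means of 67.4, 76.8, 39.7 and 12.8 counts per cell on vEC_4 of WT 1, 2, 3 and 5 and at 45.5, 59.4, 26.5 and 6.09 on vEC_1. The mean log2 ratio was 0.65 ± 0.30 (SD, n = 4 libraries) and was positive in 4 of 4. For CD43 it was 0.43 ± 0.13, for CD117 (Kit) 0.40 ± 0.09 and for CD27 0.40 ± 0.20, each positive in 4 of 4. By exact permutation of signs, two-sided, each of these gave p 0.125 (adjusted over 5 tags 0.156), which is the smallest that 4 libraries can give. CD41 was higher in 3 of 4 and lower in WT 5, at 4.62 against 8.12 counts per cell. CD44 was counted in 1 WT library, WT 5, at 8.18 on vEC_4 and 4.72 on vEC_1.

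Over all 7 libraries with tags, Meis1-flox/VE-Cre included, CD45.2, CD43 and CD27 were each higher on vEC_4 in 7 of 7, with mean log2 ratios of 0.71, 0.43 and 0.47 and an exact sign-flip permutation p of 0.0156 (adjusted over 6 tags 0.0313), the smallest that 7 libraries can give. The RNA of these proteins was nearly absent, at 4 and 7 UMIs of Ptprc (CD45), 2 and 2 of Spn (CD43) and 17 and 38 of Cd27 in the vEC_4 and vEC_1 cells of all WT libraries. Kit RNA did not differ detectably (log2 fold change -0.04, adjusted p 0.869 by edgeR). When each tag was taken relative to the other tags of the same cell, as a centred log ratio on the natural log scale, the mean differences over 4 WT libraries were 0.00 for CD117, 0.01 for CD43, -0.0034 for CD27, 0.12 for CD45.2 and -0.12 for CD41. The last 2 were of opposite sign, each with an exact permutation p of 0.125. Centring makes the values of the tags in a cell sum to 0, so a rise common to all tags is not seen on this scale.

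**Figure D5:**
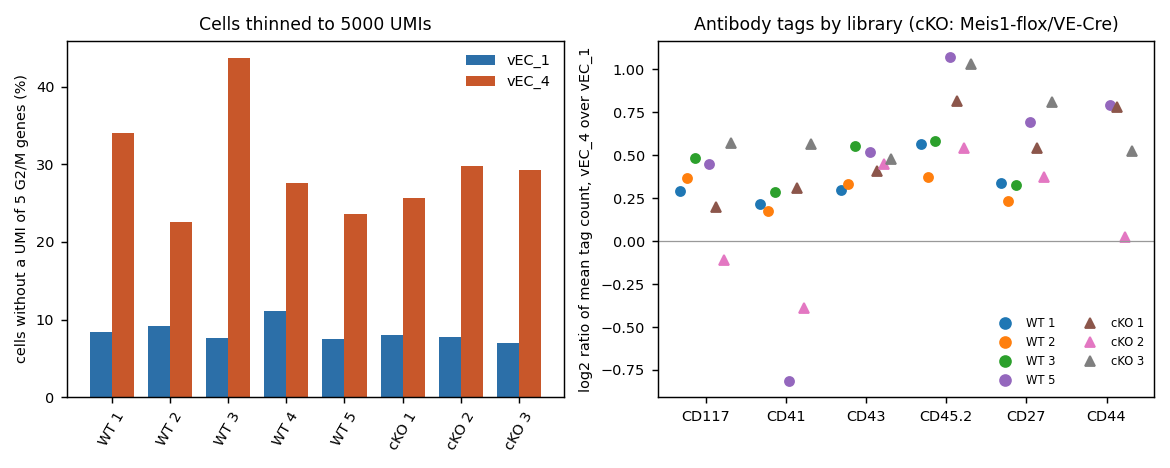
Left, percent of cells without a UMI of 5 G2/M genes after thinning to 5000 UMIs in vEC_1 (blue bars) and vEC_4 (orange bars) of 8 libraries; right, log2 ratio of mean tag count of vEC_4 over vEC_1 (y axis) by tag, with circles for WT and triangles for Meis1-flox/VE-Cre libraries. The orange bars, from 22.6% to 43.8%, exceed the blue bars, which reach 11.2%, in each library, and CD43, CD45.2 and CD27 lie above 0 in each library with tags.

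The contrast was then compared between genotypes, which asks whether deletion of Meis1 in endothelium changes what separates vEC_4 from vEC_1. Depth went largely with genotype. Median UMIs per cell, over all cells, were 9611.5 to 14895 in the Meis1-flox/VE-Cre libraries. They were 26572 to 28553 in WT 1 to 4, and 12720.5 in WT 5. The parts of genotype and depth cannot be told apart by this comparison. In the interaction of cluster and genotype, 0 of 11087 genes (0.00%) were called by edgeR's quasi-likelihood test, 446 had an unadjusted p under 0.05, and DESeq2 called 0. The smallest p belonged to Edn1, which was singled out after its value was seen. Its log2 fold change was 3.97 in WT and 2.97 in Meis1-flox/VE-Cre, a difference of -1.03 (SE 0.23, adjusted p 0.414). Meis1 itself differed by -0.22 between genotypes (SE 0.48, adjusted p 1.00), and its reads need not lie in the deleted part. In the Meis1-flox/VE-Cre libraries alone, Nr2f2 had a log2 fold change of 1.33, Prox1 of 4.30, Lef1 of -1.88 and Cdh2 of -2.71, against 1.58, 4.90, -2.13 and -3.02 in WT. Of 82 genes named here that were called in WT and tested in both, 77 were called in the same direction in Meis1-flox/VE-Cre alone and 0 had the opposite sign. Both groups were clustered together by the study, so that this is no independent test of the contrast.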

How the data were processed

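The authors aligned and counted reads with Cell Ranger 3.0.2 on mm10, per the labels' processing notes, kept cells by the number of genes (the fewest in the table is 2001) and by mitochondrial content, and integrated and clustered them in Seurat. The deposited table holds raw UMI counts of 28014 genes and 6 tags in 15168 cells, with 0 values not whole, and a second table gives each cell's library and cluster name. Cell names give the library for 10456 cells, 0 of them against the annotation, and the other cells follow the annotation.

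Counts were summed per library and cluster (at least 10 cells) and tested with edgeR 4.0.16 in R 4.3.3 (limma 3.58.1, TMM, filterByExpr, quasi-likelihood F test, two-sided, Benjamini-Hochberg, adjusted p under 0.1). The library was the block, because the 2 clusters of a library come from the same embryos. Each SE was derived from the log2 fold change and its F. The fit was tested on simulated data. Libraries are pools of embryos. With the library as block or pair, p-values measure how steady the difference between clusters is from library to library. They do not measure the spread of levels between libraries. Tags and depth were compared by exact sign flips over libraries. For shares of cells with a UMI, cells were thinned to 5000 UMIs and shallower cells left out (7 of 815 vEC_4 and 6 of 1599 vEC_1). Intervals are exact Clopper-Pearson intervals at 95%, and cover counting error only. Scrublet, run through scanpy 1.11.5, marked 118 of 15168 cells as doublets (0.778%), which were kept. Promoters come from RefSeq windows on GRCm38.p6, the assembly of mm10, which 32 of 36 G2/M genes matched by symbol.

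Named genes are the 12 largest rises and falls with an adjusted p under 0.1, a mean log2 CPM of at least 5 (0.5 CPM added) and 1 direction in 5 libraries, up to 6 members of each gene list, all venous and arterial genes of the study, and genes of the tag proteins. Some are left out or not reported here. Chosen outside the rule, after their values were seen, were Hoxb7, Hoxb8, Hoxb9, Cdc20, Ccnb1, Cdk1, Mki67, Top2a, Kif11, the label checks Cdh5, Pecam1 and Emcn, and the members Mcm6, Dtl, Kdr, Flt4, Sox18 and Stab1 that counts refer to. The members, lists and rules were chosen with earlier results of these data known. Alternatives were RLE factors, DESeq2 1.42.0, no filter, an adjusted p under 0.05, Bonferroni adjustment, thinning, equal weight for cells with limma, no doublets, no block, each library left out and the other genotype alone. Other steps used scipy 1.17.1, pandas 2.3.3, numpy 2.4.6 and Python 3.11.15, and plots matplotlib 3.10.9.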

Additional observations from a re-analysis of the deposited data

Results flagged for a closer look

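Of 100 groups of 4 or 5 library values, 8 had 1 library outside Dixon's limit, where chance passes about 1 in 20. In WT 4 the log2 difference of vEC_4 to vEC_1 was -1.18 for Slc2a1, -0.83 for Cdkn1a and -0.37 for Pkm, each nearer to 0 than in the other 4 libraries. In WT 3 it was -0.97 for Esm1 and -2.73 for Tubb6, and in WT 5 it was -0.98 for Epas1 and -3.18 for Hoxd9. The CD41 tag had a log2 ratio of -0.81 in WT 5. Of 84 genes compared between genotypes, 0 moved in opposite directions in all libraries of each.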

How the results depend on the processing

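Against 6055 genes called of 11089 tested, Bonferroni adjustment gave 2108, thinning to 5000 UMIs 3484 of 8916 and the fit with no replicate block 4023 of 10417. An alternative chosen after seeing the data, which kept only cells without a UMI of 5 G2/M genes, gave 1973 of 6582. It left 26 to 76 vEC_4 cells and 10 to 61 vEC_1 cells in a WT library, so its count is not on the same footing. At 2-fold or more, against 1002, thinning gave 640 and the cells without G2/M UMIs 354. The planned exclusion of cells with 2 or more UMIs of 9 cycle genes was not run, since too few cells were left. The interaction gave 8 genes with no filter on low counts, and 0 to 2 when 1 library was left out. Of 1400 pairs of a named gene and an alternative, 1372 kept direction and side of the threshold, 17 lost the call, 5 gained it and 6 reversed. The reversals were Notch1 at -0.0238 and Kit at 0.0121 with thinning, Kit at 0.000187 with limma, and, among cells without G2/M UMIs, Jag1 at 0.0906, Epas1 at 0.14 and Kit at 0.25. The cause was not tested.

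For tags, all libraries together gave 0.32 for CD117, 0.43 for CD43, 0.71 for CD45.2, 0.47 for CD27 and 0.0501 for CD41. CD41 was 0.26 by median counts, 0.25 per RNA UMI and -0.14 to 0.23 with 1 library left out (0.23 without WT 5), and CD27 was -0.0034 as a centred log ratio. With 1 library left out, the difference in UMIs per cell was -4782 to -3693 and in genes per cell -389 to -302, where 4 libraries cannot give an exact permutation p below 0.125. Foxf2 had a log2 fold change of -6.57 without WT 5.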
